A study of Mus musculus with 12 samples.

Results

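The data addressed whether the heart's transcript response to pressure overload depended on the branched-chain amino acids (BCAA) in the diet, read as a diet by surgery interaction in each gene. The interaction was the log2 difference between transverse aortic constriction (TAC) and sham surgery on a BCAA-free diet, minus the same difference on a control diet. Its members were the genes listed in both TAC against sham tables, 15215 of the 16246 genes in any table of the series; 15195 were tested and 20 with a mean value under 10 were not. A positive interaction means that TAC moved a gene upwards more, or downwards less, on the BCAA-free diet than on the control diet. Hearts of male C57Bl/6J mice aged 12 weeks were profiled by polyA RNA sequencing in 4 groups of 3 samples: BCAA-free TAC, BCAA-free sham, control diet TAC and control diet sham. The BCAA-free diet contained no leucine, isoleucine or valine, and the control diet held every essential amino acid with the BCAA at the level of standard chow. All groups had the defined diet for 4 days before surgery and hearts were taken 2 weeks after it, so that the control mice too ate a defined amino acid diet. No allele or transgene was described, and a sample could be a single heart or several, since no label settles it. The p-values therefore reflect only how far these samples scatter, part of which may be technical.

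TAC narrows the aorta so that the left ventricle pumps against a raised load, and in mice the ventricle thickens, deposits matrix and, with time, dilates. The loaded ventricle is known for a fetal gene program that includes natriuretic peptides, beta myosin heavy chain and skeletal alpha actin, for fibroblast activation with collagen synthesis, and for lower transcripts of fatty acid oxidation and the respiratory chain. Leucine, isoleucine and valine are essential amino acids; in the heart they are transaminated in mitochondria by Bcat2 and oxidised through the branched-chain keto acid dehydrogenase complex (Bckdha, Bckdhb, Dbt and Dld), which the kinase Bckdk inhibits and the phosphatase Ppm1k activates. Leucine is also a signal that activates the kinase complex mTORC1 through Sestrins and the Rag GTPases, and shortage of any essential amino acid can raise ATF4 target genes through the kinase Gcn2.

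Depth ranged between 13848953 and 52059546 reads per library over the genes listed, and values below are the authors' normalized read counts, each diet's TAC and sham libraries scaled together. Levels on the 2 diets are therefore compared only as changes against the sham samples of the same diet, except where the authors' tables of BCAA-free against control diet are named. Cardiomyocyte markers were the largest of the 14 marker sums in every library. Their 8 genes summed to between 3062037 and 3130234 in BCAA-free TAC samples against 2749768 to 3028817 in BCAA-free sham samples. They summed to between 1735255 and 2081058 in control diet TAC samples against 2274841 to 2389139 in control diet sham samples. The T cell markers Cd3e and Cd3d, the skeletal muscle fibre markers Myh1 and Myh4, and the adipocyte marker Lep were not listed. The other 6 of the 7 adipocyte markers were listed. They summed to between 406 and 1315 in BCAA-free TAC samples against 301 to 871 in BCAA-free sham samples. On the control diet they summed to between 133 and 676 in TAC samples against 156 to 271 in sham samples. In bulk tissue, fewer cells of a type and less RNA per cell cannot be told apart. Control diet TAC replicate 2 stood apart on the first principal component, at 65.3 against 30.5 and 36.9 for the other 2 samples of its group. Medians of several lists below are given with and without it. Estimates for single genes include it.

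TAC moved 1314 of 15195 genes differently on the 2 diets (8.65%; limma, Benjamini-Hochberg adjusted p under 0.05). Of these, 747 had a higher interaction (4.92% of the genes tested) and 567 a lower one (3.73%), and 4320 genes had an unadjusted p under 0.05. Among the called genes with higher interactions were those for the respiratory chain, the citric acid cycle, fatty acid oxidation and BCAA breakdown, while lower ones included matrix, hypertrophy and interferon-stimulated genes. Most called genes had estimates of opposite sign on the 2 diets. Of the 747, 719 had a positive TAC log2 difference on the BCAA-free diet and a negative one on the control diet. Of the 567, 493 had the reverse. Together these were 92.2% of called genes, against 50.9% of all genes tested. Calling on a difference between responses itself favours opposite signs. The BCAA-free response itself passed the test in only 33 of the 747 and 11 of the 567, against 0.388% of all genes. The control diet response passed in 567 of the 747 and 429 of the 567, against 19.7% of all genes. For most called genes a change on the BCAA-free diet was therefore not established. The control diet response was the larger of the pair in 77.1% of called genes. Over the 747, the median TAC log2 difference was 0.24 on the BCAA-free diet and -0.48 on the control diet, and over the 567 it was -0.22 on the BCAA-free diet and 0.53 on the control diet. An interaction of at least 1 in size was found for 115 genes with a higher and 133 with a lower interaction.

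The TAC responses behind the interaction were of unequal size. On the BCAA-free diet, 59 genes passed the test (0.388%), 44 of them up (0.29%) and 15 down (0.0987%). On the control diet, 2988 genes passed (19.7%), 1581 up (10.4%) and 1407 down (9.26%). Across genes, the SD of the TAC log2 difference was 0.305 on the BCAA-free diet and 0.475 on the control diet. With a spread fitted for each diet and surgery group, 783 genes passed in the TAC response on the BCAA-free diet and 1850 in the TAC response on the control diet. DESeq2 on the recovered reads called 615 on the BCAA-free diet and 3464 on the control diet. The TAC samples of the called genes lay wholly apart from the sham samples on each diet, in opposite directions, for 401 of the 747 and 244 of the 567, against 5.97% of all genes tested.

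The count of interaction calls depended on single libraries. It fell to 438, 691 and 216 genes without BCAA-free TAC replicates 1, 2 and 3 in turn, to 297 and 278 without BCAA-free sham replicates 1 and 2, and to 634 and 635 without control diet TAC replicates 2 and 3, and was between 1004 and 1733 without each of the other libraries. Calls held in all 12 of these fits for 186 genes, and for 22 of the 100 called genes named by rule. After a gene's adjusted p, a count such as 8 of 12 gives how many of these fits kept its call; the removals that most often ended a named call were those of BCAA-free TAC replicate 3 (76 genes), BCAA-free sham replicates 1 and 2 (69 and 66) and BCAA-free TAC replicate 1 (58), and the fewest ended without control diet TAC replicate 1 (4). Rescaling all libraries to equal totals gave 386 genes with a higher and 1462 with a lower interaction, with the median of all genes at -0.20 instead of -0.03, so every direction below is relative to the median of all genes.

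**Figure D1:**
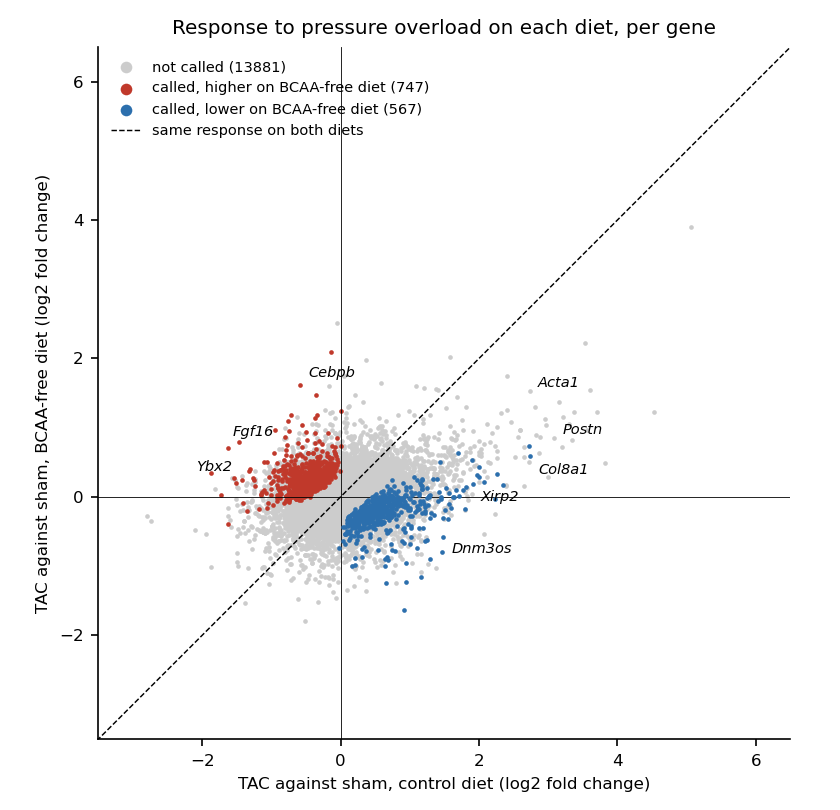
TAC against sham log2 difference of each gene on the BCAA-free diet (vertical axis) against that on the control diet (horizontal axis), from log2(normalized count + 1); red points are the 747 genes with a higher interaction, blue points the 567 with a lower one, grey points genes not called, and the dashed line marks equal responses. Red points sit above the line, mostly at small positive heights over negative control diet values, blue points sit below it, and 1 gene lies outside the axes.

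Genes that passed the test in both TAC responses as well as in the interaction numbered 15, and all moved in opposite directions on the 2 diets; they were picked out after their values were seen. Another 4 genes passed in both responses in the same direction. Of the 15, 13 rose with TAC on the BCAA-free diet and fell on the control diet: Cebpb, Tmem238, Fgf16, Aes, Sap30l, Vegfb, Bag1, Kcng2, Rnf187, Cdk2ap1, Ptov1, Bod1 and Ano8. Plekhg1 and Fam124b moved the other way, Fam124b at a low mean value of 28.5. Cebpb encodes C/EBP beta, a transcription factor that is known to be lowered in mouse heart by endurance exercise, and whose reduction promotes cardiomyocyte growth there (chromosome 2, 167688915 to 167690418, GRCm38). Its normalized counts were 2268, 2699 and 3046 in BCAA-free TAC samples, against 899.9, 909 and 788 in BCAA-free sham samples. They were 475, 479.6 and 519 in control diet TAC samples, against 642, 572 and 1079 in control diet sham samples. The groups did not overlap on either diet, and the TAC log2 difference was 1.62 on the BCAA-free diet (adjusted p = 0.00406) and -0.58 on the control diet (adjusted p = 0.0425). Its interaction was 2.20 ± 0.26 (SE; adjusted p = 0.00478), the highest of any called gene whose mean value reached 100 and whose symbol is not a model name. Cebpb shares 312 exonic bases with Tmem189 on the opposite strand, and whether counting used strand is not given in the sources used here.

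The Cebpb promoter is shown because this gene carried the largest upward interaction and a cyclic AMP response element is a known control of it; the 250 bases before its start are given from RefSeq (GRCm38.p6, plus strand), chr2:167688665-167688914. Capitals mark TGACG, the core of that element, searched on both strands: 3 matches, the first on the minus strand (read there as its complement) and the others on the plus strand. Of the 10958 tested genes with an entry in that table, 29.5% have this motif in the same window, so its presence here is a description only.
Cebpb promoter: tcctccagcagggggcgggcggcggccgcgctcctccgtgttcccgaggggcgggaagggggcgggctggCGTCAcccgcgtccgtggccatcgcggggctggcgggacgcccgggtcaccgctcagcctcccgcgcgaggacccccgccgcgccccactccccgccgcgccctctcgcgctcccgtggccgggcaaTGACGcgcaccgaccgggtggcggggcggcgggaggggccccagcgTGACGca

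Fgf16, a fibroblast growth factor made by cardiomyocytes of the adult mouse heart, had 885, 999.6 and 829 in BCAA-free TAC samples, against 611, 630.0 and 396 in BCAA-free sham samples. It had 334, 280.2 and 285 in control diet TAC samples, against 499, 509 and 524 in control diet sham samples. The TAC groups stood clear of their sham groups in both cases, above on the BCAA-free diet and below on the control diet, with an interaction of 1.53 ± 0.21, adjusted p = 0.00533, 12 of 12. Vegfb, a growth factor for coronary vessels, had 7602, 8946 and 9672 in BCAA-free TAC samples, against 5499.9, 5673 and 5656 in BCAA-free sham samples. It had 3910.2, 3348 and 3768 in control diet TAC samples, against 4906, 4908 and 4653 in control diet sham samples. Again no sample crossed over, and the interaction was 1.03 ± 0.14, adjusted p = 0.00478. Plekhg1, a guanine nucleotide exchange factor, ran the other way, with 446, 427 and 361 in BCAA-free TAC samples, against 642, 633 and 595 in BCAA-free sham samples. It had 827, 871 and 897 in control diet TAC samples, against 603, 555 and 608 in control diet sham samples. The interaction of Plekhg1 was -1.16 ± 0.14, adjusted p = 0.00478, with TAC log2 differences of -0.60 on the BCAA-free diet and 0.55 on the control diet. Bag1, a co-chaperone of Hsc70, had an interaction of 0.92 ± 0.14, adjusted p = 0.00711, and Aes, a Groucho family corepressor, one of 1.11 ± 0.15, adjusted p = 0.00478.

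The 14 highest called interactions, counting only genes whose mean value reached 100, belonged to Cebpb, Gfra4, Ybx2, Stard10, C1qtnf4, Tmem238, Sfrp5, Cox7a1, Fgf16, Whrn, Gadd45b, Celsr3, Fmc1 and Dnaaf3. Their log2 interactions ran between 1.32 and 2.20, and in each of them the BCAA-free response was positive and the control diet response negative. Gfra4, a co-receptor for a ligand of the GDNF family, had an interaction of 1.71 ± 0.32, adjusted p = 0.0126, 12 of 12. C1qtnf4, a secreted protein of the C1q and TNF related family, had an interaction of 1.61 ± 0.31, adjusted p = 0.0149, 12 of 12. Fmc1, an assembly factor of the mitochondrial ATP synthase, had one of 1.34 ± 0.26, adjusted p = 0.0151, 12 of 12. Gadd45b, a stress-induced gene that binds p38 pathway kinases, had 907, 770.3 and 1049 in BCAA-free TAC samples, against 650.3, 698 and 389 in BCAA-free sham samples. It had 678, 723 and 949.6 in control diet TAC samples, against 1056, 1434 and 1569.9 in control diet sham samples. The 2 pairs of groups did not overlap, TAC above sham on the BCAA-free diet and below it on the control diet, and the interaction was 1.47 ± 0.31, adjusted p = 0.0215, 11 of 12. In the authors' diet tables its log2 difference between BCAA-free and control diet was -0.01 after TAC and -1.48 after sham, so the diets stood apart in the sham samples. Gadd45b lost its call without BCAA-free TAC replicate 3 (adjusted p = 0.0593). Stard10, a phospholipid transfer protein, and Sfrp5, a secreted Wnt inhibitor, had interactions of 1.67 ± 0.32, adjusted p = 0.0175, 11 of 12, and 1.59 ± 0.43, adjusted p = 0.0394, 2 of 12. The sum of the atrial muscle markers Myl7, Sln, Myl4, Nr2f2 and Bmp10 was between 9913 and 20272 in BCAA-free TAC samples against 4829 to 10555 in BCAA-free sham samples. It was between 5408 and 7967 in control diet TAC samples against 5112 to 10678 in control diet sham samples, so TAC and sham overlapped on both diets. None of these 5 markers passed the test of the interaction. Its sign was negative for Nr2f2 (-0.51) and positive for the others. Nr2f2 rose with TAC on the control diet (log2 0.79, adjusted p = 0.0119 by limma). Bmp10, which is made by atrial cardiomyocytes, had 168, 3746 and 133 in BCAA-free TAC samples, against 15.6, 0 and 1.41 in BCAA-free sham samples. It had 469.7, 30.2 and 15.8 in control diet TAC samples, against 1028, 34.8 and 41.3 in control diet sham samples (interaction adjusted p = 0.1). The part of atrial tissue in these results was not tested.

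**Figure D2:**
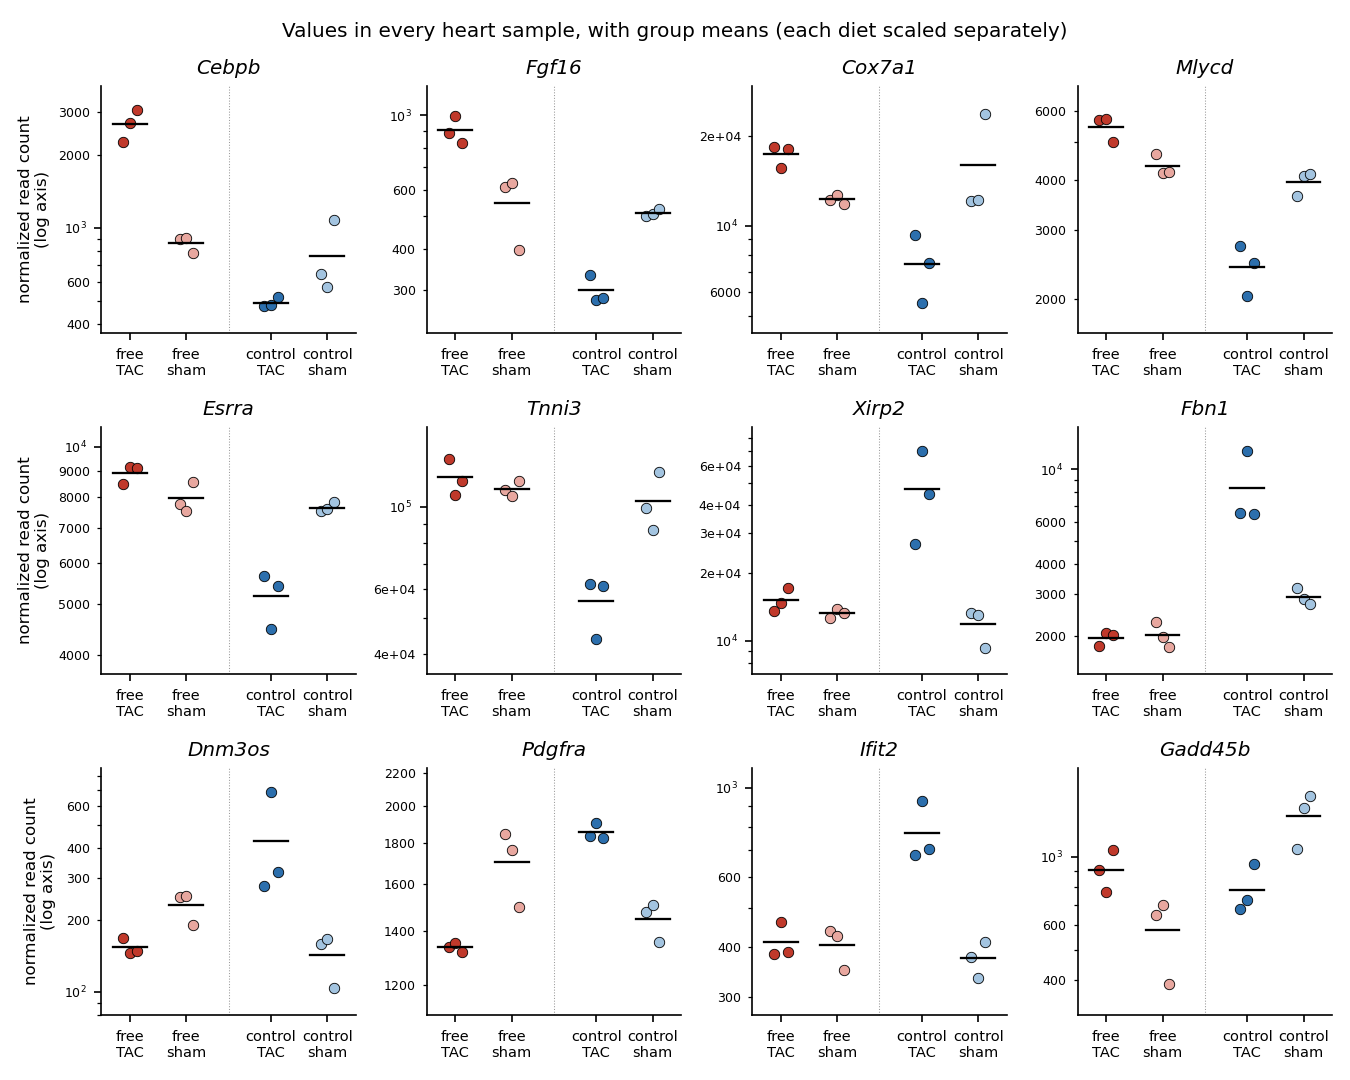
Normalized counts of 12 genes in all 12 samples (log axis; points are samples, bars group means; BCAA-free and control diet samples were scaled separately by the authors). The 3 BCAA-free TAC samples lie above the 3 BCAA-free sham samples for Cebpb and Fgf16 while the control diet TAC samples lie below their sham samples; Xirp2, Fbn1 and Ifit2 stand apart between surgeries on the control diet and overlap on the BCAA-free diet.

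Transcripts of the respiratory chain carried the most calls of any list. Of its 36 nuclear-encoded members, 26 had a higher interaction and none a lower one, against 4.92% higher and 3.73% lower among all genes. The median interaction was 0.77, beside -0.03 for all genes; the median TAC log2 difference was 0.18 on the BCAA-free diet and -0.58 on the control diet. With TAC on the BCAA-free diet none passed the test by limma (1 at an unadjusted p under 0.05), and on the control diet, where 9.26% of genes fell, all 36 fell. Median levels of the list against the sham mean of the same diet were 0.25, 0.04 and 0.22 (log2) in the BCAA-free TAC samples and -0.42, -0.78 and -0.51 in the control diet TAC samples. Cox7a1, the heart and muscle form of a cytochrome c oxidase subunit (chromosome 7, 30184144 to 30186078), had 18375, 15566 and 18071 in BCAA-free TAC samples, against 12243, 12676 and 11843 in BCAA-free sham samples. It had 9346, 5527 and 7522 in control diet TAC samples, against 12128, 12206 and 23784 in control diet sham samples. TAC samples stood above sham on the BCAA-free diet and below sham on the control diet, and its interaction was 1.56 ± 0.34, adjusted p = 0.0222, 8 of 12. Uqcrq, a subunit of complex III, had 19213, 16005 and 17876 in BCAA-free TAC samples, against 13982, 13155 and 13472 in BCAA-free sham samples. It had 10739.5, 8040.4 and 9981 in control diet TAC samples, against 14008, 13392 and 23794 in control diet sham samples. Its interaction was 1.17 ± 0.25, adjusted p = 0.0204, 8 of 12, with the same order of the groups. Ndufs7 and Ndufb10, subunits of complex I, had interactions of 1.04 ± 0.22, adjusted p = 0.0195, 9 of 12, and 0.92 ± 0.19, adjusted p = 0.0177, 11 of 12. Cyc1, cytochrome c1 of complex III, had 0.78 ± 0.17, adjusted p = 0.0185, 9 of 12.

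The number of respiratory chain genes called moved with single libraries, being 0 without BCAA-free TAC replicate 3, 1 without BCAA-free sham replicate 2, 2 without BCAA-free sham replicate 1, 3 without BCAA-free TAC replicate 1, 14 without control diet TAC replicates 2 or 3, 16 without BCAA-free sham replicate 3. At an unadjusted p under 0.05, 35 of the 36 still passed without BCAA-free TAC replicate 3. Cox7a1 lost its call when BCAA-free TAC replicates 1 or 3 or BCAA-free sham replicates 1 or 2 was left out (adjusted p = 0.0518 to 0.0599). With each library's trend over transcript GC content and length removed, 18 of the 36 were called, with a median of 0.56; without control diet TAC replicate 2 the median was 0.66. The summed cardiomyocyte markers, lower in control diet TAC than in control diet sham samples as given above, moved in the same direction as these transcripts, and 2 of the 8 (Tnni3 and Myl2) were called. Their part in the result was not tested. By contrast, none of the 13 mitochondrially encoded transcripts was called by limma, none had an unadjusted p under 0.05, and none was called by edgeR or DESeq2. Their median interaction was -0.03.

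In the citric acid cycle, 9 of 18 genes had a higher interaction and none a lower one, against 4.92% higher and 3.73% lower among all genes. The list's median was 0.55, or 0.43 without control diet TAC replicate 2. Its TAC medians were 0.02 on the BCAA-free diet and -0.47 on the control diet. Idh3g, a regulatory subunit of NAD-dependent isocitrate dehydrogenase, had an interaction of 0.76 ± 0.18, adjusted p = 0.024, 8 of 12. Mdh2, mitochondrial malate dehydrogenase, had 0.65 ± 0.15, adjusted p = 0.0249, 8 of 12. On the control diet 17 of the 18 fell with TAC, where 9.26% of all genes fell. The citric acid cycle count was 0 without BCAA-free TAC replicates 1 or 3 or BCAA-free sham replicates 1 or 2, 3 without control diet TAC replicates 2 or 3, 4 without BCAA-free TAC replicate 2. In the fits with no call by limma, between 14 and 16 of the 18 had an unadjusted p under 0.05.

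Fatty acid oxidation followed, with 11 of 34 genes higher and none lower, against 4.92% higher and 3.73% lower among all genes. The median interaction was 0.55, with TAC medians of 0.01 on the BCAA-free diet and -0.56 on the control diet. On the control diet 20 of the 34 fell, where 9.26% of all genes did. Mlycd, malonyl-CoA decarboxylase, which removes the inhibitor of carnitine palmitoyltransferase (GRCm38 chromosome 8, 119394878 to 119411102), had 5679, 5732 and 4992 in BCAA-free TAC samples, against 4677, 4184 and 4202 in BCAA-free sham samples. It had 2731, 2035 and 2471 in control diet TAC samples, against 3650.0, 4113 and 4143 in control diet sham samples. No sample of either TAC group fell within the range of its sham group, and the interaction was 1.05 ± 0.16, adjusted p = 0.00587, 12 of 12. Esrra, the nuclear receptor ERR alpha that drives many mitochondrial genes, had 8502, 9154 and 9093 in BCAA-free TAC samples, against 7786, 7549.8 and 8579.8 in BCAA-free sham samples, groups that overlapped. It had 5658, 4483 and 5407 in control diet TAC samples, against 7521, 7590.1 and 7826 in control diet sham samples, with TAC samples below, and its interaction was 0.73 ± 0.14, adjusted p = 0.013, 12 of 12. Mlycd and Esrra kept their calls in all 12 fits with 1 library left out and with GC and length trends removed. Acaa2, the mitochondrial 3-ketoacyl-CoA thiolase, had an interaction of 0.94 ± 0.24, adjusted p = 0.0303, 7 of 12, and Cpt2, carnitine palmitoyltransferase 2, one of 0.64 ± 0.15, adjusted p = 0.0261, 8 of 12. The list's count was 2 without BCAA-free TAC replicates 1 or 3 or BCAA-free sham replicates 1 or 2, 6 without BCAA-free TAC replicate 2, control diet TAC replicates 2 or 3 or control diet sham replicate 3, 7 without BCAA-free sham replicate 3, 17 without control diet TAC replicate 1. Without control diet TAC replicate 2 the fatty acid oxidation median was 0.37.

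The enzymes that break down the amino acids left out of the diet were part of this pattern: 7 of 28 BCAA catabolism genes had a higher interaction and none a lower one. Among all genes 4.92% were higher and 3.73% lower. The list's median interaction was 0.46, or 0.32 without control diet TAC replicate 2. Its TAC medians were 0.01 on the BCAA-free diet and -0.41 on the control diet. On the control diet 20 fell and 1 rose, where 9.26% of all genes fell and 10.4% rose. Bcat2, the mitochondrial aminotransferase of the first step, had 4254, 3918 and 4296 in BCAA-free TAC samples, against 3610.1, 3639.5 and 3885 in BCAA-free sham samples. It had 2370.3, 2172 and 2273 in control diet TAC samples, against 2736, 2875 and 3350.3 in control diet sham samples. TAC samples were above sham on the BCAA-free diet and below on the control diet, and the interaction was 0.55 ± 0.13, adjusted p = 0.0231, 8 of 12. Bckdha, the E1 alpha subunit of the branched-chain keto acid dehydrogenase, had 6622, 5768 and 6253 in BCAA-free TAC samples, against 6024, 6159.6 and 6323 in BCAA-free sham samples, overlapping groups. It had 3572, 2497 and 3479 in control diet TAC samples, against 4819.7, 4537 and 5779 in control diet sham samples, with TAC lower. Its interaction was 0.68 ± 0.18, adjusted p = 0.0367, 4 of 12. Bckdk, the kinase that inactivates that complex, had an interaction of 0.50 ± 0.13, adjusted p = 0.0321, 6 of 12, so the catalytic subunit and its inhibitor had interactions of the same sign. Mccc2, a subunit of methylcrotonyl-CoA carboxylase in leucine breakdown, had 0.67 ± 0.15, adjusted p = 0.0222, 8 of 12, and Mcee, methylmalonyl-CoA epimerase, 0.84 ± 0.21, adjusted p = 0.0282, 7 of 12. The other called members were Auh and Hsd17b10.

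The remaining regulators of BCAA oxidation did not pass: Bckdhb, the E1 beta subunit, had an interaction of 0.58 ± 0.20, adjusted p = 0.0834, Klf15, a transcription factor known to induce BCAA catabolism in mouse heart, 0.56 ± 0.25, adjusted p = 0.16, and Ppm1k, the activating phosphatase, 0.02 ± 0.25, adjusted p = 0.967. Ppm1k was 2359 ± 118 in BCAA-free TAC and 2937 ± 132 in BCAA-free sham samples, and 1176 ± 246 in control diet TAC and 1507 ± 431 in control diet sham samples (SD, n = 3 each); the 95% interval of its interaction was -0.53 to 0.57. The BCAA catabolism count was 0 without BCAA-free TAC replicates 1 or 3 or BCAA-free sham replicates 1 or 2, 2 without control diet TAC replicate 2, 4 without BCAA-free TAC replicate 2, BCAA-free sham replicate 3 or control diet TAC replicate 3, 11 without control diet TAC replicate 1. In the fits with no call by limma, between 13 and 15 of the 28 had an unadjusted p under 0.05. Bcat2 lost its call when BCAA-free TAC replicates 1 or 3 or BCAA-free sham replicates 1 or 2 was left out (adjusted p = 0.0549 to 0.0648). Bckdha lost its call when any 1 library other than control diet TAC replicates 1 or 3 or control diet sham replicates 1 or 2 was left out (adjusted p = 0.0511 to 0.0855). Bckdha shares 1171 exonic bases with B3gnt8 on the opposite strand.

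Outside mitochondria, 3 of 15 potassium channel genes had a higher interaction, where 4.92% of all genes did: Kcnq1 (0.65 ± 0.13, adjusted p = 0.0177, 11 of 12) and Kcnh2 (1.03 ± 0.24, adjusted p = 0.0256, 6 of 12), which encode the pores of the slow and rapid delayed rectifier currents, and Kcnj12 (0.69 ± 0.17, adjusted p = 0.0279, 7 of 12), an inward rectifier. Their list had a median of 0.49, or 0.33 without control diet TAC replicate 2. On the control diet 8 of its members fell, where 9.26% of all genes did. In the sarcomere list, 2 of 20 were higher, with a median of 0.27, or 0.17 without control diet TAC replicate 2. One was Tnni3, cardiac troponin I, with 134944, 107379 and 117673 in BCAA-free TAC samples, against 111167, 106850.1 and 117163 in BCAA-free sham samples, overlapping groups. It had 61968, 43987 and 61054 in control diet TAC samples, against 98977, 86649.8 and 124291 in control diet sham samples, TAC below sham. Its interaction was 0.99 ± 0.22, adjusted p = 0.0204, 8 of 12. The other was Myl2, the ventricular regulatory light chain (0.86 ± 0.24, adjusted p = 0.0394, 5 of 12). Tnni3 lost its call when BCAA-free TAC replicates 1 or 3 or BCAA-free sham replicates 1 or 2 was left out (adjusted p = 0.0518 to 0.0573). Tnni3 and Dnaaf3 share 86 exonic bases on the same strand, and both are among the genes named here. Calcium handling had 1 higher call in 14, near the share of all genes, Hrc, a histidine-rich calcium-binding protein of the sarcoplasmic reticulum (0.70 ± 0.21, adjusted p = 0.0488, 2 of 12). Atp2a2, the calcium pump SERCA2, did not pass (0.57 ± 0.22, adjusted p = 0.114).

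The next lists are also read against 4.92% higher and 3.73% lower among all genes. Glycolysis and glycogen genes had 5 of 26 higher and none lower (median 0.28): Pkm, pyruvate kinase (0.59 ± 0.13, adjusted p = 0.0222, 7 of 12), Slc2a4, the insulin-responsive glucose transporter (0.68 ± 0.17, adjusted p = 0.0295, 7 of 12), Eno3, muscle enolase (0.75 ± 0.16, adjusted p = 0.0189, 10 of 12), Ldhb, the lactate dehydrogenase of heart (0.79 ± 0.18, adjusted p = 0.0229, 8 of 12), and Phkg1. In the proteasome, 4 of 27 were higher (median 0.33), 3 of them core particle subunits, Psmb4, Psmb5 and Psmb6, and Psme1, a subunit of the 11S activator. The proteasome median was 0.18 without control diet sham replicate 3 and 0.17 with GC and length trends removed. Among cytosolic ribosomal proteins 2 of 34, Rps2 (0.58 ± 0.17, adjusted p = 0.0485, 3 of 12) and Rpl27 (0.73 ± 0.20, adjusted p = 0.0393, 4 of 12), were higher, a share near that of all genes, and 33 of the 34 had a positive sign (median 0.43). That median dropped to 0.22 when control diet sham replicate 3 was left out, and was 0.18 once GC and length trends were removed. With GC and length trends removed, none of the ribosomal proteins was called by limma, and with libraries at equal totals none was either; 8 and 5 of the cytosolic ribosomal proteins had an unadjusted p under 0.05 in those fits. Ribosomal protein genes have many near-identical pseudogenes, and how reads with several matches were counted is not given in the sources used here. Sod1 and Sod2, the cytosolic and mitochondrial superoxide dismutases, were the 2 higher genes of 23 in the NRF2 and antioxidant list (0.78 ± 0.19, adjusted p = 0.0268, 6 of 12, and 0.53 ± 0.15, adjusted p = 0.0399, 4 of 12), and Pink1 (0.79 ± 0.18, adjusted p = 0.0228, 8 of 12) and Map1lc3a (0.85 ± 0.17, adjusted p = 0.0157, 12 of 12), both of mitochondrial and general autophagy, the 2 of 22 in the FOXO, atrophy and autophagy list.

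Hypertrophy genes had interactions of the other sign. Of 15 genes in the hypertrophy and fetal program list, 4 had a lower interaction and none a higher one, against 3.73% lower and 4.92% higher among all genes. The list's median was -0.92, or -0.69 without control diet TAC replicate 2. Its TAC medians were 0.29 on the BCAA-free diet and 1.07 on the control diet. On the BCAA-free diet 1 gene rose with TAC, Acta1, and on the control diet 12 did. Among all genes 0.29% rose on the BCAA-free diet and 10.4% on the control diet. Xirp2, an actin-binding protein of intercalated discs that is known to rise under load, had 13549, 14691 and 17217 in BCAA-free TAC samples, against 12656, 13918 and 13269 in BCAA-free sham samples, overlapping groups. It had 26983, 70006 and 44791 in control diet TAC samples, against 13317, 12975 and 9280.5 in control diet sham samples, with all TAC samples above sham. Its interaction was -1.72 ± 0.38, adjusted p = 0.0234, 7 of 12. Mybpc2, the fast skeletal myosin-binding protein C, had 1139.9, 1564 and 1404 in BCAA-free TAC samples, against 776, 898 and 957 in BCAA-free sham samples. It had 1973, 2562 and 2197 in control diet TAC samples, against 862, 599 and 637 in control diet sham samples. TAC samples were above sham on both diets, further on the control diet, and the interaction was -1.06 ± 0.21, adjusted p = 0.0169, 12 of 12, a call that held in all 12 fits with 1 library left out. Rcan1, a calcineurin target, and Enah, an actin regulator, had interactions of -0.95 ± 0.27, adjusted p = 0.0485, 1 of 12, and -0.92 ± 0.23, adjusted p = 0.0306, 6 of 12. The list's count was 1 without BCAA-free TAC replicates 1 or 3 or BCAA-free sham replicates 1 or 2, 2 without control diet TAC replicate 3 or control diet sham replicate 3, 8 without control diet TAC replicate 1. Xirp2 lost its call when BCAA-free TAC replicates 1 or 3, BCAA-free sham replicates 1 or 2 or control diet sham replicate 3 was left out (adjusted p = 0.052 to 0.0587).

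The best known load markers had negative interactions that did not pass the test. Acta1, skeletal alpha actin, had 13887, 11724 and 14050.0 in BCAA-free TAC samples, against 5008, 5123 and 3700.0 in BCAA-free sham samples. It had 46340.2, 84862 and 79759.6 in control diet TAC samples, against 10652, 6745 and 14828 in control diet sham samples, and it rose on both diets, with TAC log2 differences of 1.53 (adjusted p = 0.0479) on the BCAA-free diet and 2.73 (adjusted p = 0.00117) on the control diet. The interaction was -1.20 ± 0.40, adjusted p = 0.0789. Nppa, atrial natriuretic peptide, had 16211, 28291 and 41234 in BCAA-free TAC samples, against 10397, 8706 and 5599 in BCAA-free sham samples. It had 22999, 86226 and 22651 in control diet TAC samples, against 8256, 3081 and 11951 in control diet sham samples, and its interaction was -0.66 ± 0.92, adjusted p = 0.674, with a 95% interval of -2.74 to 1.42. Ankrd1, a stretch-responsive titin-binding protein, had an interaction of -1.19 ± 0.39, adjusted p = 0.0772, Myh7, beta myosin heavy chain, -1.40 ± 0.55, adjusted p = 0.128, and Nppb, brain natriuretic peptide, -0.78 ± 0.49, adjusted p = 0.323. For alpha myosin heavy chain, Myh6, it was 0.30 ± 0.19, adjusted p = 0.316.

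All 36 matrix and fibrosis genes had a negative interaction, and 5 were called: Col8a1, Col14a1, Fbn1, Col4a1 and Mmp14. Among all genes 3.73% were called lower. The median interaction was -1.48, with TAC medians of 0.42 on the BCAA-free diet and 1.92 on the control diet. With TAC on the BCAA-free diet none of them passed by limma (2 at an unadjusted p under 0.05). On the control diet, where 10.4% of all genes rose, 35 of the 36 did. Median levels of the list were 0.15, 0.44 and 0.80 (log2) above the sham mean in the BCAA-free TAC samples and 1.43, 2.95 and 1.47 in the control diet TAC samples, so every control diet TAC sample was higher than every BCAA-free one, and control diet TAC replicate 2 was far above the other 2. Fbn1, fibrillin 1 of elastic microfibrils (chromosome 2, 125300594 to 125507993), had 1822, 2062 and 2024 in BCAA-free TAC samples, against 2289.7, 1984 and 1798 in BCAA-free sham samples, overlapping groups. It had 6541, 11859 and 6509.9 in control diet TAC samples, against 3176, 2868 and 2727 in control diet sham samples. Its interaction was -1.48 ± 0.26, adjusted p = 0.0121, 12 of 12. Col4a1, a basement membrane collagen, had 9422, 10964 and 11491 in BCAA-free TAC samples, against 10672, 9867 and 11040.2 in BCAA-free sham samples, which also overlapped. It had 26596, 43712 and 30837 in control diet TAC samples, against 15988, 12020.5 and 13195 in control diet sham samples, all TAC samples above sham. Its interaction was -1.26 ± 0.22, adjusted p = 0.011, 12 of 12. Both calls held in all 12 fits with 1 library left out. Fbn1 shares 2442 exonic bases with Gm9913 on the opposite strand. Col8a1, a short-chain collagen, had the lowest called interaction among genes whose mean value reached 100, -2.14 ± 0.58, adjusted p = 0.0499, 2 of 12, and Col14a1, a fibril-associated collagen, had -1.65 ± 0.41, adjusted p = 0.0333, 5 of 12. Col8a1 lost its call when any 1 library other than control diet TAC replicates 1 or 2 was left out (adjusted p = 0.0513 to 0.104).

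Postn, periostin of activated fibroblasts, had 1379, 1478 and 2665 in BCAA-free TAC samples, against 1128, 1031 and 802 in BCAA-free sham samples. It had 5586, 22994 and 5654 in control diet TAC samples, against 1120.1, 863 and 1238 in control diet sham samples, the highest value being in replicate 2, and an interaction of -2.23 ± 0.72, adjusted p = 0.0854 that did not pass. Col1a1 and Col3a1, the main fibrillar collagens, did not pass either (-1.50 ± 0.68, adjusted p = 0.184, and -1.36 ± 0.52, adjusted p = 0.125). For the matrix and fibrosis list the count of calls was 2 without BCAA-free TAC replicates 1, 2 or 3, BCAA-free sham replicates 1 or 2 or control diet sham replicate 3, 17 without control diet TAC replicates 1 or 2, while DESeq2 called 21; without control diet TAC replicate 2 the median was -0.98, still negative. With libraries at equal totals 12 were called, and with GC and length trends removed 3. Summed fibroblast markers (Pdgfra, Dcn, Lum, Tcf21, Gsn, Pi16, Col1a1 and Dpt) were between 66048 and 75313 in BCAA-free TAC samples against 65894 to 69079 in BCAA-free sham samples, and between 68452 and 81960 in control diet TAC samples against 59376 to 69073 in control diet sham samples. The part of fibroblast number in the matrix result was not tested.

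The fibroblast list, which shares Col1a1 with the matrix list, gave 3 lower calls of 15, Ddr2, Pdgfra and Dcn, against 3.73% among all genes. Its median was -0.57, or -0.43 without control diet TAC replicate 2. By sign, 10 of the 15 were negative and 5 positive. Pdgfra, the PDGF receptor that marks fibroblasts, had 1338, 1352 and 1319.8 in BCAA-free TAC samples, against 1849, 1768 and 1499 in BCAA-free sham samples. It had 1838, 1905 and 1827 in control diet TAC samples, against 1477, 1508 and 1358 in control diet sham samples. TAC samples lay below sham on the BCAA-free diet and above on the control diet, and the interaction was -0.71 ± 0.12, adjusted p = 0.0109, 12 of 12. That of Ddr2, a collagen receptor, was -0.72 ± 0.14, adjusted p = 0.0153, 12 of 12. Both held in all 12 fits with 1 library left out. The RNA Dnm3os, which hosts the miRNAs Mir199a-2 and Mir214, had 169, 146 and 148 in BCAA-free TAC samples, against 249.6, 253 and 190.4 in BCAA-free sham samples. It had 278, 685 and 316 in control diet TAC samples, against 158, 166 and 103 in control diet sham samples. Here too the TAC samples were all below sham on the BCAA-free diet and all above on the control diet, with an interaction of -2.06 ± 0.40, adjusted p = 0.0165, 12 of 12. The remaining genes of the 14 lowest called interactions, counting genes whose mean value reached 100, included Adamts4, a proteoglycan-cleaving protease (-1.91 ± 0.42, adjusted p = 0.0215, 10 of 12), Pi15, a secreted protease inhibitor (-1.84 ± 0.31, adjusted p = 0.00858, 12 of 12), Igsf10 (-1.79 ± 0.37, adjusted p = 0.0181, 11 of 12), Svep1 (-1.72 ± 0.45, adjusted p = 0.0416, 4 of 12), Itih5, an inter-alpha-trypsin inhibitor heavy chain (-1.68 ± 0.35, adjusted p = 0.0191, 9 of 12), and Aspn, asporin (-1.66 ± 0.38, adjusted p = 0.0259, 7 of 12). Enpp1, which makes pyrophosphate, had -1.63 ± 0.41, adjusted p = 0.0337, 6 of 12, and Nlrc3, a cytosolic NLR protein, -1.57 ± 0.32, adjusted p = 0.0169, 12 of 12. Arhgap11a, a GTPase-activating protein, had -1.64 ± 0.38, adjusted p = 0.024, 9 of 12, and Mid1, a microtubule-associated ubiquitin ligase, -1.59 ± 0.38, adjusted p = 0.025, 8 of 12. Igsf10 and Svep1 share 1948 and 2244 exonic bases with Med12l and Gm26889 on the opposite strand.

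Interferon-stimulated genes had the second large block of lower interactions: all 27 were negative and 7 were called, against 3.73% called lower among all genes. The list's median was -0.70, or -0.50 without control diet TAC replicate 2. TAC medians were 0.03 on the BCAA-free diet and 0.75 on the control diet. On the control diet 19 of the 27 rose, where 10.4% of all genes did. The called genes were Mx1, Rsad2, Ifit2, Ifih1, Gbp7, Ddx58 and Parp14, which include the cytosolic RNA sensors MDA5 (Ifih1) and RIG-I (Ddx58) and antiviral effectors. Ifit2 had 385, 461 and 388 in BCAA-free TAC samples, against 438, 427 and 349.8 in BCAA-free sham samples, overlapping groups. It had 678, 926 and 703 in control diet TAC samples, against 377, 335 and 413 in control diet sham samples, all TAC samples above sham. Its interaction was -0.999 ± 0.20, adjusted p = 0.0154. Rsad2, viperin, had 269, 347 and 256 in BCAA-free TAC samples, against 521, 364 and 346 in BCAA-free sham samples, overlapping at 1 sample. It had 711, 764 and 746 in control diet TAC samples, against 506, 388 and 523 in control diet sham samples, again with all TAC samples above sham. The interaction was -1.14 ± 0.23, adjusted p = 0.0167, 11 of 12. Ifih1 had an interaction of -0.96 ± 0.19, adjusted p = 0.0151, 12 of 12, and Gbp7, a guanylate-binding GTPase of a family with near-identical copies, -0.84 ± 0.20, adjusted p = 0.024, 9 of 12. Ifit2 and Ifih1 held in all 12 fits with 1 library left out. Rsad2 lost its call without BCAA-free TAC replicate 3 (adjusted p = 0.0502). Gbp7 lost its call when BCAA-free TAC replicate 3, BCAA-free sham replicate 1 or control diet TAC replicate 3 was left out (adjusted p = 0.0531 to 0.0611). The list's count was 2 without BCAA-free TAC replicate 3, 3 without BCAA-free sham replicate 1 or control diet TAC replicate 3, 4 without BCAA-free sham replicate 2, 11 without control diet TAC replicate 1, and 2 with GC and length trends removed.

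Promoters of Gbp7 and Rsad2 are shown because these members moved together with the list and hold the core of the element that STAT and IRF complexes bind in interferon-stimulated genes. The 250 bases before each start are from RefSeq (GRCm38.p6): Gbp7 chr3:142530086-142530335, plus strand, and Rsad2 chr12:26456453-26456702, minus strand. Capitals mark that core, a pair of TTTC repeats with any 2 bases between them, searched on both strands and found once in each. No base of it overlaps a TGACG match. The motif was in this window for 10 of the 19 interferon-stimulated genes with an entry (52.6%) and for 3.13% of tested genes; of the 5 called ones with an entry, 2 had it.
Gbp7 promoter: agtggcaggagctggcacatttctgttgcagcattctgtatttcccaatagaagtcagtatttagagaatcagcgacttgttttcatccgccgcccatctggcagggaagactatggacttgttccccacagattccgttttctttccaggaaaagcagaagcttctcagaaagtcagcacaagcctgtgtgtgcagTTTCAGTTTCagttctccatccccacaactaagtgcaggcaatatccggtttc
Rsad2 promoter: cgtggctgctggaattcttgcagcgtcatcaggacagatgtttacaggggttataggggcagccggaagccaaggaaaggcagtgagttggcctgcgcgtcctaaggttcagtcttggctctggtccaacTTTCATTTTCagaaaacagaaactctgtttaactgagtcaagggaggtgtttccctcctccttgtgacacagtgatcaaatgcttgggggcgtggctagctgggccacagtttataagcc

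Immune cell and vessel lists are read against the 4.92% of all genes called higher and the 3.73% called lower. None of 23 macrophage genes was called by limma, with 3 at an unadjusted p under 0.05 and 1 called by DESeq2, and none of 8 class II antigen presentation genes, with 2 at an unadjusted p under 0.05 and 0 higher and 0 lower by DESeq2 in the class II antigen presentation list. Macrophage marker sums were between 6559 and 7793 in BCAA-free TAC samples against 5652 to 6710 in BCAA-free sham samples, and between 8856 and 11300 in control diet TAC samples against 6256 to 9516 in control diet sham samples. Ptprc, the pan-leukocyte phosphatase CD45 (-1.09 ± 0.27, adjusted p = 0.0289, 6 of 12), Kit, the mast cell and progenitor receptor (-1.12 ± 0.27, adjusted p = 0.0261, 7 of 12), and Ccl11, eotaxin (1.71 ± 0.46, adjusted p = 0.0376, 3 of 12), were the single calls in the lymphocyte, the neutrophil and mast cell, and the chemokine and cytokine lists. Among vessel genes, limma called 0 of 16 endothelial genes (4 at an unadjusted p under 0.05, 3 lower by DESeq2), 2 lower of 8 pericyte genes, Mcam (-0.63 ± 0.15, adjusted p = 0.0256, 7 of 12) and Rgs5 (-0.69 ± 0.15, adjusted p = 0.0199, 9 of 12), and 1 each way of 12 smooth muscle genes, Smtn, smoothelin (0.79 ± 0.13, adjusted p = 0.00925, 12 of 12), and Mylk, myosin light chain kinase (-0.51 ± 0.15, adjusted p = 0.0439, 2 of 12). The smooth muscle list had a median interaction of -0.57, and 11 of the 12 were negative. On the control diet 8 of them rose with TAC, where 10.4% of all genes did.

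**Figure D3:**
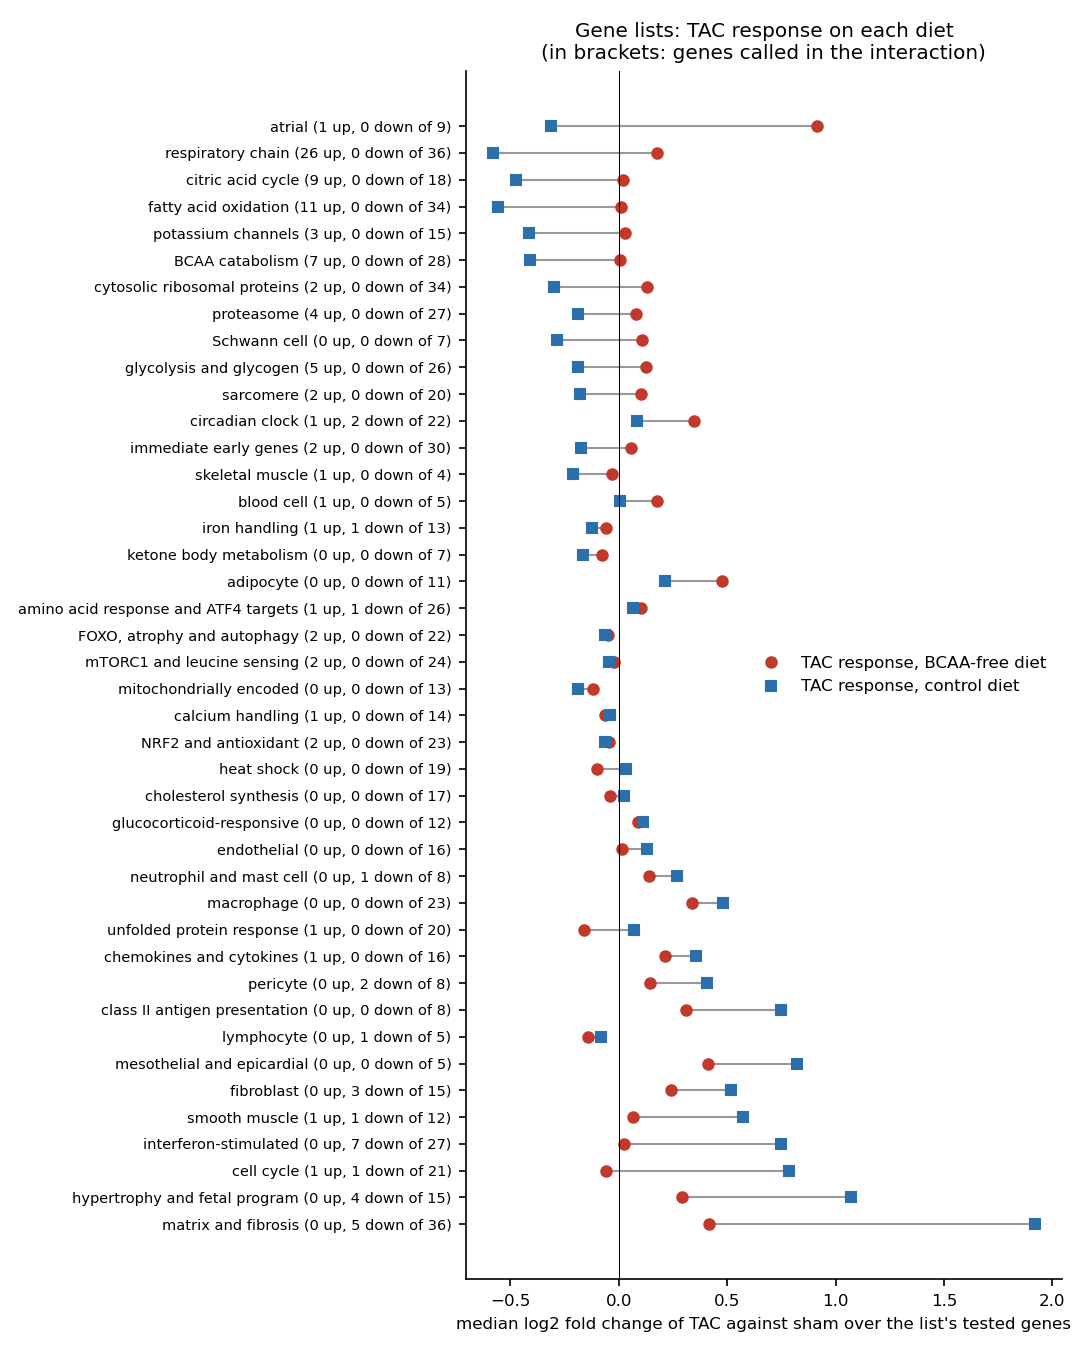
Median TAC against sham log2 difference of each gene list on the BCAA-free diet (red circles) and on the control diet (blue squares). The gap between the marks is widest for the matrix and fibrosis list, where the BCAA-free median is 0.42 and the control diet median 1.92. The respiratory chain shows the reverse order, with 0.18 on the BCAA-free diet and -0.58 on the control diet.

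Lists tied to amino acid supply were called at about the share of all genes, 8.65% (4.92% higher and 3.73% lower). Of 26 amino acid response and ATF4 targets, 1 was higher and 1 lower, with a median of 0.01: Shmt2, mitochondrial serine hydroxymethyltransferase (0.46 ± 0.12, adjusted p = 0.0314, 6 of 12), and Slc7a5, the large neutral amino acid transporter that carries leucine (-0.92 ± 0.26, adjusted p = 0.0454, 3 of 12). Slc7a5 had 180.1, 261 and 287 in BCAA-free TAC samples, against 224, 216 and 164 in BCAA-free sham samples, overlapping groups. It had 294, 406 and 309 in control diet TAC samples, against 145, 137 and 159.6 in control diet sham samples, so it rose with TAC on the control diet (log2 1.17, adjusted p = 0.00268). Of 24 mTORC1 and leucine sensing genes, 2 were higher, with a median of 0.00: Lamtor2, a Ragulator subunit (0.56 ± 0.16, adjusted p = 0.042, 3 of 12), and Akt1s1, the mTORC1 inhibitor PRAS40 (0.51 ± 0.13, adjusted p = 0.0314, 6 of 12). Among 22 circadian clock genes, Npas2 and Rora were lower (-1.17 ± 0.33, adjusted p = 0.0405, 2 of 12, and -0.53 ± 0.14, adjusted p = 0.0341, 4 of 12). Among 30 immediate early genes 2 were higher, Cebpb and Gadd45b, and among 21 cell cycle genes 1 each way, Cenpf (0.86 ± 0.24, adjusted p = 0.0432, 3 of 12) and Kif11 (-1.88 ± 0.41, adjusted p = 0.0204, 9 of 12), with a median of -0.71. The cell cycle median was -0.49 without control diet TAC replicate 2. Heat shock and ketone body genes had no call by limma (1 of 19 and 2 of 7 at an unadjusted p under 0.05; DESeq2 called 2 lower and 1 higher).

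**Figure D4:**
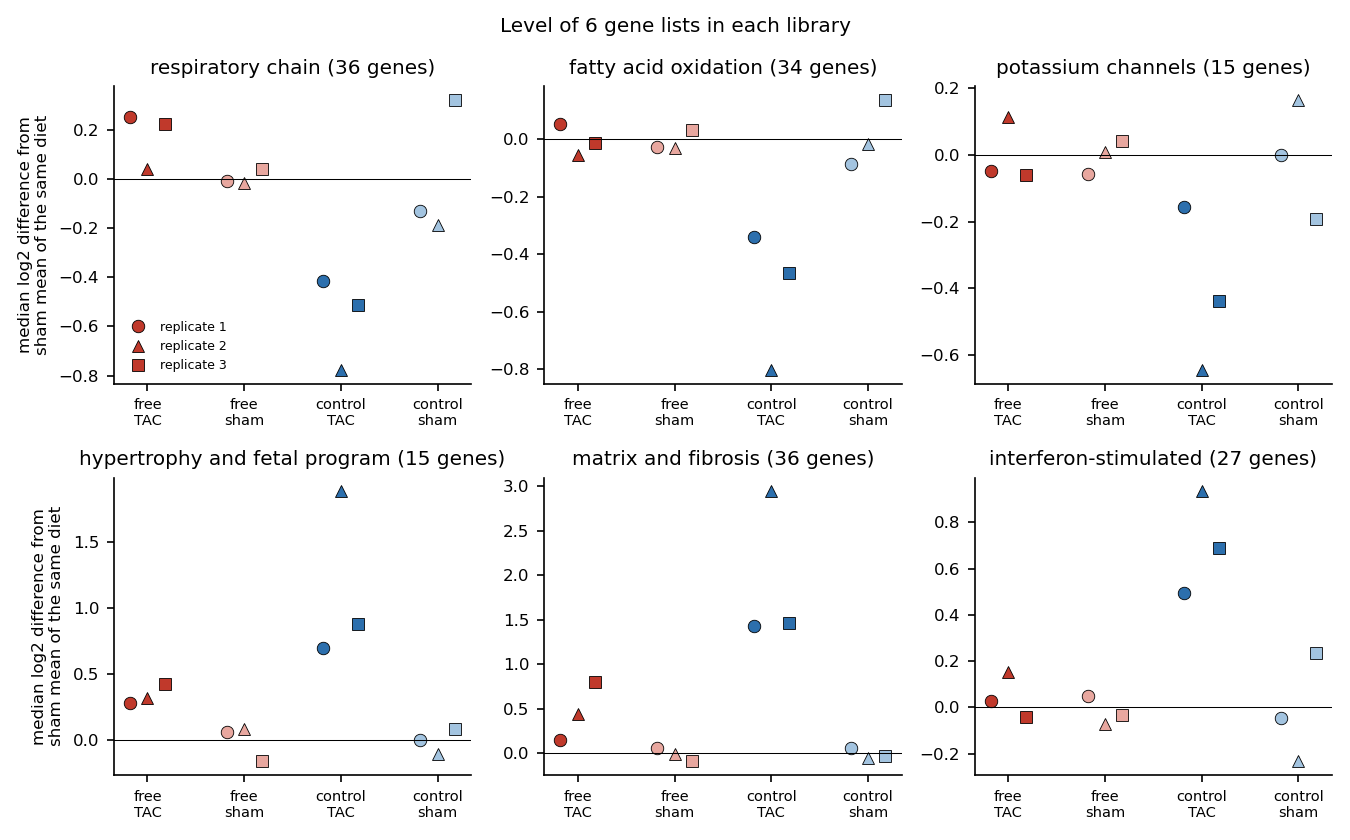
Median level of 6 gene lists in each library, as the log2 difference from the mean of the sham samples of the same diet (points are libraries, 3 per group). In the matrix and fibrosis list the BCAA-free TAC libraries lie at 0.15, 0.44 and 0.80 and the control diet TAC libraries at 1.43, 2.95 and 1.47.

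The authors' tables of BCAA-free against control diet, one after TAC and one after sham, place the interaction between the 4 groups. Of the 747 genes with a higher interaction, the BCAA-free samples lay wholly above the control diet samples after TAC in 704 and wholly below in 1, where 51.3% of 15085 genes separated in either direction. After sham, they lay above in 21 and below in 280, where 22.8% separated. Of the 567 with a lower interaction, the BCAA-free samples lay wholly below in 526 after TAC and above in 2; after sham they lay below in 46 and above in 157. The diet difference had a median log2 of 0.53 after TAC and -0.18 after sham in the first set, and of -0.64 after TAC and 0.11 after sham in the second. These tables hold the same libraries as the TAC tables, so the split describes the interaction and does not support it. For Cebpb the diet difference was 2.20 after TAC and 0.00 after sham, for Cox7a1 1.01 after TAC and -0.54 after sham, and for Dnm3os -1.58 after TAC and 0.48 after sham. In the tables after TAC, Cebpb averaged 2770.1 ± 405 in BCAA-free TAC samples and 599 ± 28.7 in control diet TAC samples (SD, n = 3 each).

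In the authors' deposited tables of TAC against sham, 306 of the 15215 genes were called at an adjusted p under 0.05 on both diets. By the authors' deposited table, 125 of them changed in opposite directions, 102 rising on the BCAA-free diet and falling on the control diet and 23 the reverse, and 181 changed in the same direction. All 125 were called in the interaction here, from the same libraries. Picking genes for opposite changes in these libraries itself favours such calls, so the overlap is a description only.

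The interaction followed 2 properties of the transcripts themselves. Median transcript GC content was 55.0% for the 747 genes with a higher interaction and 45.0% for the 567 with a lower one, against 49.8% for all genes, and median transcript length was 2014.5, 5491 and 3226 bases for these sets in turn. Across genes, which are not independent replicates, Spearman's rank correlation of the interaction was 0.30 with GC content and -0.37 with length. The rank correlation with GC content was 0.51 for the BCAA-free TAC response and -0.036 for the control diet response. By library, the rank correlation of GC content with each gene's deviation from its mean over all libraries was 0.20, 0.40 and 0.39 in the BCAA-free TAC samples and between -0.22 and 0.038 in the other 9. The 3 libraries with the highest of these values form 1 group, so the GC trend and that group cannot be told apart. For length, the same rank correlation was -0.30, -0.12 and -0.36 in the BCAA-free TAC samples and -0.41 in control diet sham replicate 3, against 0.054 to 0.24 in the other 8. Control diet sham replicate 3 also had the highest control diet values of Cox7a1, Uqcrq and Cebpb; without it the interaction of Cox7a1 was 1.23, the interaction of Uqcrq 0.91 and the interaction of Cebpb 1.92, and all 3 kept their calls. The part of these trends in the result was not tested, other than by their removal. With each library's trends over GC content and length removed, 485 genes were called, 338 higher and 147 lower, of which 382 were also called without that step (260 higher, 122 lower). Without control diet TAC replicate 2 as well, an alternative chosen after seeing the data, 297 genes were called, 206 higher and 91 lower. In every alternative that gave them an adjusted p, 97 genes were called. An alternative that left a gene out was not counted against it. Among the named ones these were Cebpb, Gfra4, Tmem238, Fgf16, Fmc1, Dnaaf3, Mlycd, Esrra, Mybpc2, Col4a1, Pi15 and Dnm3os.

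**Figure D5:**
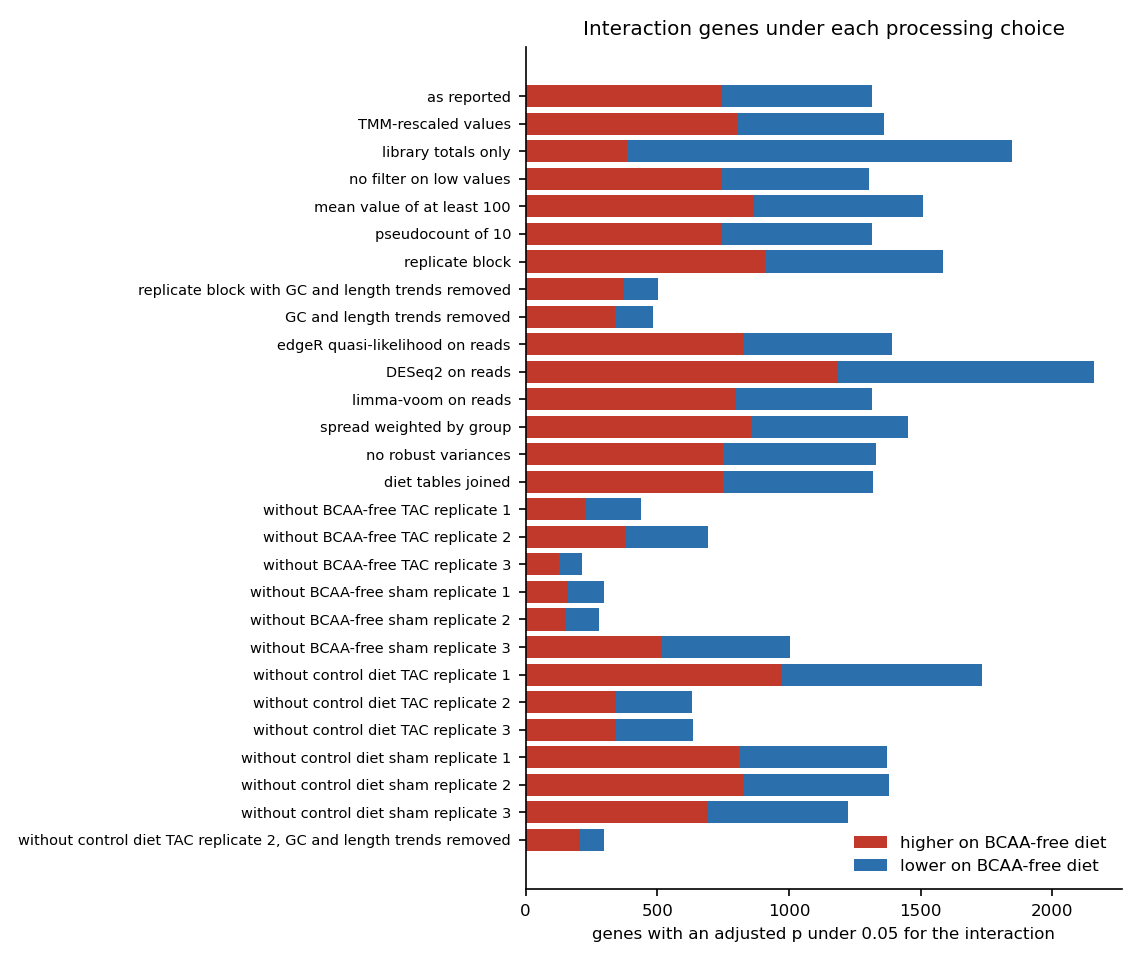
Number of genes called in the interaction under each alternative (stacked bars from 0; red higher, blue lower). The bars reach 1314 as reported, 485 with GC and length trends removed, and 216 without BCAA-free TAC replicate 3, the shortest of the fits with 1 library left out.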

How the data were processed

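Gene expression was measured by polyA RNA sequencing in 12 mouse heart samples, 4 groups of 3. Trimmomatic 0.36, STAR 2.5.2b, Subread 1.5.2, DESeq2 and the genome builds GRCm38 and mm10 are named in the submitters' processing notes, without roles or parameters. The deposited tables hold normalized counts per gene (a signal scale: reads divided by 1 size factor per library and table), and the authors' log2 fold changes, p-values and adjusted p-values for each comparison; per the file headers each table compares 2 groups. Within a tolerance of 0.01, 100% of the deposited normalized counts were whole multiples of 1 read, and the reads recovered for a library did not differ between its 2 tables.

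The 2 TAC against sham tables were joined by gene ID. Values were tested as log2(normalized count + 1) for genes with a mean of at least 10, with limma 3.58.1 (trend and robust empirical Bayes, statmod 1.5.0, R 4.3.3) on 4 group means over all 12 libraries. Fold changes are on this scale, which understates the change of low genes. The interaction and both TAC responses are contrasts of 1 fit, Benjamini-Hochberg adjusted over 15195 genes, and a call is an adjusted p under 0.05. SE are those of the fit. On simulated data of 15168 genes with known interactions, 59% of the 2-fold and 87% of the 4-fold interactions were recovered (100 each), with 12 false calls, 7.6% of all calls. The simulation changed values only in BCAA-free TAC samples, with no other TAC or diet effect and the same spread for all groups. It held no GC or length trend by library and no library that stood apart. Its rates therefore need not hold for the real calls. Replicates differed by more than sampling noise (chi-square per gene between 4.70 and 67.9), so none was merged.

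Alternatives were edgeR 4.0.16 (quasi-likelihood), DESeq2 1.42.0 and limma-voom on recovered reads, other scalings, filters and pseudocounts, a spread per group, the diet tables joined, a replicate block, removal of each library's trend over transcript GC content and log2 length (natural splines with 4 degrees of freedom, GENCODE M21), and each library left out in turn. With the recovered reads edgeR called 1392 genes. Genes named are the 14 highest and 14 lowest called interactions at a mean of at least 100, up to 4 called members per list or the 2 with the smallest p, and a set of load and BCAA genes; any others are said to be chosen after their values were seen. Some genes under this rule are not reported here. The members, the 42 gene lists and the markers were chosen with earlier results of these data known. Genes sharing exons with another gene, or with near-identical copies, are uncertain.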

Additional observations from a re-analysis of the deposited data

Results flagged for a closer look

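The response to TAC differed between the diets, by the test of the difference itself, in 747 genes with a higher interaction on the BCAA-free diet and 567 with a lower one (limma, adjusted p under 0.05 over 15195 genes).

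Counting genes whose mean value reached 100, the highest called log2 interactions were those of Cebpb (2.20), Gfra4 (1.71), Ybx2 (1.67), Stard10 (1.67), C1qtnf4 (1.61), Tmem238 (1.59), Sfrp5 (1.59), Cox7a1 (1.56), Fgf16 (1.53), Whrn (1.49), Gadd45b (1.47), Celsr3 (1.40), Fmc1 (1.34) and Dnaaf3 (1.32). Their TAC log2 differences were positive on the BCAA-free diet and negative on the control diet. In Cebpb, Tmem238 and Fgf16 both of those responses passed the test, and in Gadd45b the diet groups separated after sham but overlapped after TAC.

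At the same limit on the mean value, the lowest called interactions were those of Col8a1 (-2.14), Dnm3os (-2.06), Adamts4 (-1.91), Pi15 (-1.84), Igsf10 (-1.79), Xirp2 (-1.72), Svep1 (-1.72), Itih5 (-1.68), Aspn (-1.66), Col14a1 (-1.65), Arhgap11a (-1.64), Enpp1 (-1.63), Mid1 (-1.59) and Nlrc3 (-1.57). Dnm3os and Pdgfra had TAC samples wholly below sham on the BCAA-free diet and wholly above on the control diet. Col8a1 rested on a narrow margin (adjusted p = 0.0499). Groups of 3 samples were not screened for single outlying samples.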

How the results depend on the processing

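With all 12 libraries, the interaction called 1306 to 1584 genes under 10 of the alternatives that kept the unit and filter close to the reported ones, and 1848 with library totals only (386 higher, 1462 lower). It called 504 with a replicate block and GC and length trends removed, 485 with those trends removed, 2157 by DESeq2 (1187 higher, 970 lower), 297 without control diet TAC replicate 2 and with those trends removed (chosen after seeing the data), and 248 at an absolute log2 difference of at least 1. Leaving out 1 library each gave 216 to 1733 genes. For the TAC response on the BCAA-free diet, where 59 genes were called, the counts were 35 with library totals only, 93 at a mean value of at least 100, 4 with the block and trends removed, 6 with trends removed, 615 by DESeq2, 783 with a spread per group, 35 without control diet TAC replicate 2 and trends removed, and 8 at an absolute log2 difference of at least 1. Leaving out 1 library each gave 0 to 737, the 0 by limma without BCAA-free TAC replicate 3 (unadjusted p under 0.05 in 1538 genes) and the 737 without control diet sham replicate 3. For the TAC response on the control diet, where 2988 genes were called, they were 1850 with a spread per group, 1482 without control diet TAC replicate 2 and trends removed, and 530 at an absolute log2 difference of at least 1. Leaving out 1 library each gave 1103 to 3165, the lowest without control diet TAC replicate 2. The cause was not tested, except that fits with fewer samples or a fold minimum can call fewer genes by construction.

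A replicate block on the labels' numbers gave 1584 interaction genes (908 higher, 676 lower). No clear pairing by number was seen. Over 18 same-number pairs the correlation of deviations lay between -0.176 and 0.188, 3 were over 0.1, and 3 of 12 libraries correlated best with their own number. With 3 samples per group this check cannot exclude a shared batch. Of the values of named genes under the alternatives, 2937 kept direction and side of the threshold, 663 lost and 39 gained the call, and 0 reversed; of list medians, 1018 moved by less than the spread and 116 by more. Of 1314 called genes, 1311 kept their direction under every alternative that gave them a value. Depth limits the low genes, whose counting error is largest.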

Other observations

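Counts in further lists are read against 8.65% of all genes called. Herpud1, an endoplasmic reticulum protein of the ubiquitin pathway, was the 1 called gene of 20 in the unfolded protein response list (0.83 ± 0.24, adjusted p = 0.0454, 2 of 12), whose median interaction was -0.20. In the iron handling list of 13, Ireb2, the iron regulatory protein 2, was lower (-0.59 ± 0.13, adjusted p = 0.0229, 8 of 12). Ckm, muscle creatine kinase, was the 1 called of 4 skeletal muscle genes (0.80 ± 0.21, adjusted p = 0.0367, 6 of 12), and Hba-a2, an alpha globin with a near-identical copy, the 1 of 5 blood cell genes (0.70 ± 0.20, adjusted p = 0.042, 2 of 12). In the atrial list of 9, Stard10 was the 1 called gene and the median was 1.09.

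Lists with no call by limma or edgeR were the adipocyte list, with 0 of 11 genes at an unadjusted p under 0.05, the mesothelial and epicardial list (1 of 5, 1 lower by DESeq2), the Schwann cell list (2 of 7), the cholesterol synthesis list (2 of 17, 1 higher by DESeq2) and the glucocorticoid-responsive list (1 of 12). DESeq2 called 0 in the adipocyte, Schwann cell and glucocorticoid-responsive lists.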
